A study of Mus musculus with 11 samples.

Results

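Messenger RNA of 10 adhesion G protein–coupled receptors (*Adgrg1*, *Adgrg2*, *Adgrg6*, *Adgra3*, *Adgrl1*, *Adgrl2*, *Adgrl3*, *Adgrb1*, *Adgrb2* and *Adgrb3*) was examined in mouse dorsal root ganglia (DRGs), the clusters of sensory neuron cell bodies beside the spinal cord. They were found by symbol among 36670 genes in the RNA-Seq table, each symbol matched 1 gene, and all 10 passed the expression minimum that left 15087 genes for testing (a mean of at least 0.5 FPKM over the 11 libraries). FPKM counts fragments relative to transcript length and library size, so levels can be set side by side between genes. The 11 libraries came from whole DRGs of 4 groups: WT control mice (n = 3), WT mice labelled as 4 weeks of paclitaxel (PTX, n = 3), *Gpr37l1* KO control mice (n = 3) and *Gpr37l1* KO mice with the same PTX label (n = 2). PTX is a chemotherapy drug that stabilizes microtubules and can damage sensory nerves. *Gpr37l1* encodes a receptor of satellite glial cells, the glia that wrap DRG neurons, and the KO is a constitutive mutant allele on a C57BL/6 background, so every cell type carries it. Each group had 1 female mouse and otherwise males. The mice were adult, and neither an exact age, the PTX dose, the ganglion levels nor any pooling was given for these libraries in the sources used here.

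Adhesion GPCRs carry a long extracellular region that grips proteins of neighboring cells or of the matrix, joined to the membrane-spanning domain through a GAIN domain where most of these receptors cut themselves. The newly exposed end of the membrane part can act as a tethered agonist, so that adhesion or pulling is turned into G protein signaling. In peripheral nerve the family is best known through *Adgrg6* (GPR126), which Schwann cells need to form myelin, and in the brain through the latrophilins (*Adgrl* genes) and the brain angiogenesis inhibitors (*Adgrb* genes), which sit at synapses.

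The estimated counts summed to between 52735648 and 80348732 per library, and each member had between 805 and 17851 counts in every library. *Gpr37l1* lay between 14.56 and 35.70 FPKM in the 6 WT libraries and between 0.21 and 1.15 FPKM in the 5 KO libraries, in accord with the genotype labels. Markers of sensory neurons summed to between 3323.79 and 4488.86 FPKM and those of satellite glial cells to between 973.49 and 1411.13 FPKM, so the labelled tissue was present in every library. Markers of neighboring tissues also differed between libraries: skeletal muscle markers summed to between 2.74 and 497.98 FPKM, and markers of central glia and spinal cord summed to 7.84 and 22.78 FPKM in the KO PTX libraries against 2.49 to 7.66 FPKM in the other 9. WT control library 1 stood apart: a single gene took 2.97% of its counts, against at most 1.54% for the top gene of any other library. In whole ganglia, fewer cells of a type and less RNA per cell cannot be told apart.

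The members are spread over 8 chromosomes of the mouse genome (GRCm38, also called mm10). The *Adgrg* genes lie on chromosome 8 at 94974751 to 95014217 on the plus strand (*Adgrg1*), on chromosome X at 160390690 to 160498070 on the plus strand (*Adgrg2*) and on chromosome 10 at 14402583 to 14545659 on the minus strand (*Adgrg6*). *Adgra3* lies on chromosome 5 at 49959956 to 50059006 on the minus strand. Of the latrophilin genes, *Adgrl1* lies on chromosome 8 at 83900105 to 83941954 (plus), *Adgrl2* on chromosome 3 at 148815583 to 148990555 (minus) and *Adgrl3* on chromosome 5 at 81020138 to 81825133 (plus). *Adgrb1* lies on chromosome 15 at 74516195 to 74589465 (plus), *Adgrb2* on chromosome 4 at 129984870 to 130022633 (plus) and *Adgrb3* on chromosome 1 at 25067476 to 25829707 (minus). *Adgrl3* and *Adgrb3* are very long genes, spanning 804996 and 762232 bases, against 37764 bases for *Adgrb2*. Genes annotated on the opposite strand overlap exons of *Adgrg2*, *Adgrg6*, *Adgrl1*, *Adgrl2* and *Adgrl3*, and how strand was used in counting was not stated; the overlapping genes listed for *Adgrg2* (*Gm15241*) and *Adgrg6* (*Gm46212*) averaged 0.00091 and 0.049 FPKM.

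RefSeq promoters (GRCm38.p6) were found for 9 members, 12 start sites in all, and the 250 bases before each start were read. CpG pairs are the sites of DNA methylation in promoters, and the 12 windows held between 3 and 36 of them against a median of 6 over 32851 promoters. *Adgrg1*, the member with the highest level, had 4 CpG pairs before each of its start sites, whereas *Adgrg2* had 26 and *Adgrb3* 14. Both *Adgrg1* windows lay inside the annotated gene, and the bases before its annotated start (94974751) were not read. The *Adgrg2* and *Adgrb3* windows bordered their annotated gene starts. The windows of *Adgrl2* (3 CpG pairs), *Adgrl3* and *Adgrg6* also lay inside their genes. The windows of *Adgrg1*, *Adgrg2* and *Adgrb3* are printed because the levels and differences described next turn on these 3 receptors. They run 5′ to 3′ on the gene's own strand, with CpG pairs in capitals.

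*Adgrg1*, first start site, chr8:94976859-94977108, plus strand: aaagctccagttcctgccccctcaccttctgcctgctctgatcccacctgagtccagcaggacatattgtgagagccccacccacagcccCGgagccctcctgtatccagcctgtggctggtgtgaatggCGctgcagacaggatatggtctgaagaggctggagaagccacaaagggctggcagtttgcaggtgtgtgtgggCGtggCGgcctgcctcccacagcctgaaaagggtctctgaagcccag

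*Adgrg1*, second start site, chr8:94984149-94984398, plus strand: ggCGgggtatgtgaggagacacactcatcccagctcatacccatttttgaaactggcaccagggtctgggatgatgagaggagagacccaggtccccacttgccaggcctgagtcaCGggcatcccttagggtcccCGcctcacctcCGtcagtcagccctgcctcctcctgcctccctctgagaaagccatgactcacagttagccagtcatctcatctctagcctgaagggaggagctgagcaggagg

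*Adgrg2*, chrX:160390440-160390689, plus strand: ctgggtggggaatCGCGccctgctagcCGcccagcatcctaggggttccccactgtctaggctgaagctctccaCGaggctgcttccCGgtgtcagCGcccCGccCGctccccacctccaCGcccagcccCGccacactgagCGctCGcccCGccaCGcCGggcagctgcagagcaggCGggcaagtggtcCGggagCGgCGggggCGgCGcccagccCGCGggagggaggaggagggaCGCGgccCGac

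*Adgrb3*, chr1:25829708-25829957, minus strand: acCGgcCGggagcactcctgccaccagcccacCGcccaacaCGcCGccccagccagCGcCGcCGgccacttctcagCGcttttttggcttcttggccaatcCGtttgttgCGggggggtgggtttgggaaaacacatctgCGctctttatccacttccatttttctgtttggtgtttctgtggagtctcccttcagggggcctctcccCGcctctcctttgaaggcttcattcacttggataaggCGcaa

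Searched on both strands, the GC box GGGCGG was found in 9 of the 12 windows, including those of *Adgrg2* and *Adgrb3* but neither window of *Adgrg1*, and in 32.7% of all promoters. The TATA motif TATAAA was in 2 windows (one of *Adgrl2*, one of *Adgrl3*) and in 12.4% of all promoters. The CCAAT box CCAAT was in the *Adgrb3* window alone and in 33.8% of all promoters, and the cAMP response element TGACGTCA was in none and in 1.55% of all. These motifs do not overlap one another in their letters, and a match describes the sequence only.

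*Adgrg1* was the most abundant member. Its product, GPR56, binds collagen III and tissue transglutaminase and signals through the G12/13 proteins to RhoA. The *Adgrg1* level was 38.20, 39.53 and 39.22 FPKM in WT control mice 1 to 3, and its mean over the 11 libraries (38.3 FPKM) lay above that of 92.4% of the genes tested. In WT PTX mice it was 36.03, 39.13 and 36.33 FPKM, in KO control mice 36.79, 38.68 and 37.72 FPKM, and in KO PTX mice 2 and 3, 36.55 and 43.43 FPKM. The 4 groups overlapped, and only KO PTX mouse 3 lay outside the narrow band of the others.

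*Adgrl1*, the latrophilin named for its binding of a spider toxin, came next at 14.3 ± 0.69 FPKM in WT control mice (mean ± SD, n = 3). *Adgrg2* (GPR64), best known from the epididymis, followed at 7.55 ± 1.34 FPKM, and *Adgrb1* (BAI1), a receptor for phosphatidylserine on dying cells, at 5.63 ± 0.32 FPKM. *Adgra3* (GPR125), an orphan receptor, was at 3.94 ± 0.51 FPKM. The remaining members were each below 3 FPKM in every library: *Adgrb2* (BAI2), an orphan relative of *Adgrb1*, at 2.35 ± 0.43 FPKM, the Schwann cell receptor *Adgrg6* at 2.32 ± 0.28, the latrophilins *Adgrl3* at 1.41 ± 0.21 and *Adgrl2* at 1.30 ± 0.27, and *Adgrb3* (BAI3), a receptor for C1q-like proteins, at 0.96 ± 0.07 (SD, n = 3 each, in WT control mice). *Adgrb3* was thus the lowest member, and its mean over the 11 libraries (1.15 FPKM) lay above that of 15.7% of the genes tested.

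**Figure D1:**
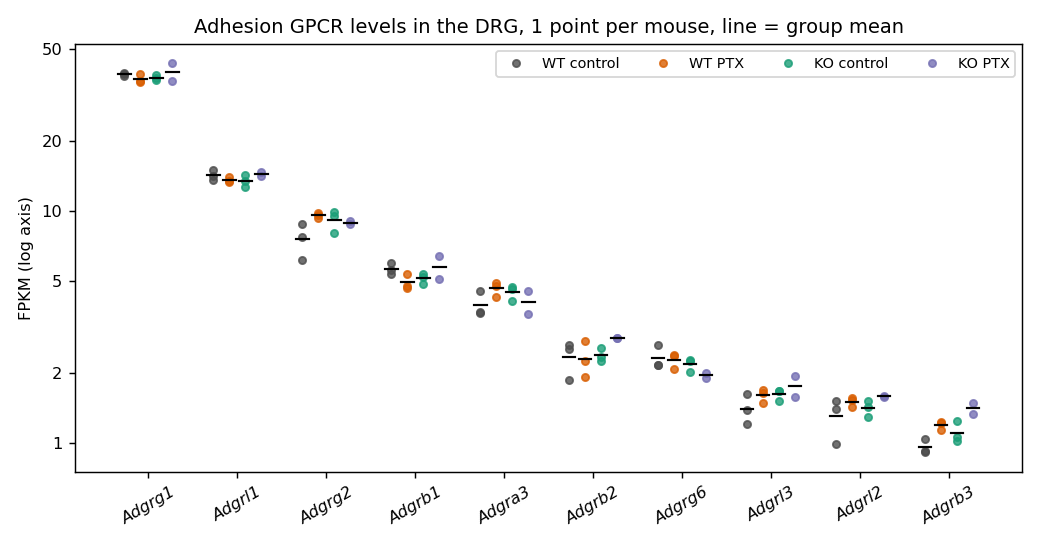
FPKM on a log axis of the 10 adhesion GPCRs, 1 point per mouse colored by group, with a line at each group mean. *Adgrg1* sits highest near 38.3 FPKM (mean of 11 libraries) and *Adgrb3* lowest near 1.15 FPKM.

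The order of the levels was much the same in every mouse. *Adgrg1* exceeded *Adgrl1*, *Adgrl1* exceeded *Adgrg2*, *Adgrg2* exceeded *Adgrb1*, *Adgra3* exceeded *Adgrb2* and *Adgrl2* exceeded *Adgrb3* in 11 of 11 mice. *Adgrb1* exceeded *Adgra3* in 10 of 11, and *Adgrg6* exceeded *Adgrl3* in 10 of 11. In 2 places neighbors did not differ beyond their spread: *Adgrb2* exceeded *Adgrg6* in 8 of 11 mice, with WT control means 0.027 FPKM apart, and *Adgrl3* exceeded *Adgrl2* in 8 of 11, with WT control means 0.11 FPKM apart. By subfamily, the 3 *Adgrg* genes made up between 60.7% and 63.1% of the members' summed FPKM, the 3 *Adgrl* genes 20.4% to 22.7%, the 3 *Adgrb* genes 10.1% to 12.6% and *Adgra3* 4.59% to 6.23%. The sum over all members ranged from 75.55 FPKM in WT control mouse 1 to 86.92 FPKM in KO PTX mouse 3.

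The members varied from mouse to mouse about as much as other genes did. Their coefficient of variation over the 11 libraries was lowest for *Adgrl1* (4.68%) and *Adgrg1* (5.49%) and highest for *Adgrb3* (15.5%) and *Adgrb2* (14.0%), and its median was 11.6% against 11.3% over all genes tested. *Adgrb3* was the member whose variation shrank most once group means were removed, to 7.78%. As a description over 11 libraries that share groups and depth, the level of *Adgrg2* followed that of *Adgrl2* (Pearson's r = 0.81) and *Adgra3* (r = 0.73), and *Adgrg6* ran opposite to *Adgrb2* (r = -0.85). WT control mouse 1, the library that stood apart, had the lowest level of both *Adgrg2* (6.14 FPKM) and *Adgrl2* (0.99 FPKM). How far their r rests on that mouse was not tested. Over the 45 pairs of members the median r was close to 0.

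Among 7341 genes with a mean of at least 5 FPKM, the patterns most like those of the members over the 11 libraries were named by the highest Pearson's r. For *Adgrg2* these were *Abca5* (r = 0.99), the chloride cotransporter gene *Slc12a2* (r = 0.99) and *Prkacb* (r = 0.98), a catalytic subunit gene of protein kinase A. For *Adgrg6* they were *Gpam* (r = 0.96), *Mcl1* and *Dtx4* (r = 0.92 each), for *Adgrg1* *Prune1* (r = 0.94), *Ints14* (r = 0.91) and *Agpat1* (r = 0.88), and for *Adgra3* *Dclk3* (r = 0.91), *Fam114a1* (r = 0.90) and *Eml1* (r = 0.88). The latrophilins were nearest to *Kpna2* (r = 0.92), *Chd4* and *Cluh* (r = 0.82 each) for *Adgrl1*, *Uhrf1bp1l*, *Ythdf1* and *Gm21811* (r = 0.95 each) for *Adgrl2*, and *Ttc7b* (r = 0.95), *Tmem131* (r = 0.94) and *Iqsec1* (r = 0.93) for *Adgrl3*. *Adgrb1* was nearest to *Arrdc1* (r = 0.93), *Morn2* (r = 0.90) and *Lrfn4* (r = 0.89), and *Adgrb2* to *Timm23* (r = 0.92), *Ficd* (r = 0.89) and *Rab3a* (r = 0.88). *Adgrb3* was nearest to *Yaf2*, *Pex3* and *Uba1* (r = 0.87 each), and once group means were removed these were r = 0.63, 0.40 and 0.45.

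**Figure D2:**
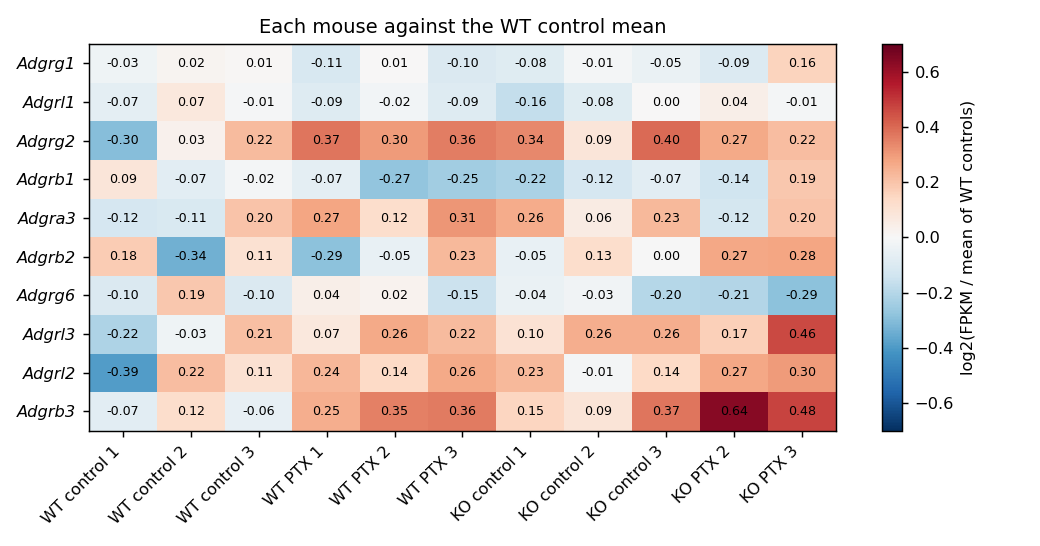
Log2 ratio of each mouse's FPKM to the mean of the WT control mice, with members in lines and mice in columns (red higher, blue lower). *Adgrb3*, *Adgrg2*, *Adgrl2* and *Adgrl3* are above that mean in all 5 PTX mice, *Adgrb3* by 0.25 to 0.64. *Adgrb3* is also above it in every KO control mouse, by 0.09 to 0.37. WT control mouse 1 is below it for *Adgrg2*, *Adgrl2* and *Adgrl3*.

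The first comparison asked which members differed with PTX in WT mice. *Adgrb3* and *Adgrg2* were the members whose groups did not overlap, both higher after PTX. *Adgrb3* was at 0.91, 1.04 and 0.92 FPKM in WT control mice 1 to 3 and at 1.14, 1.22 and 1.23 FPKM in WT PTX mice 1 to 3. *Adgrg2* was at 6.14, 7.70 and 8.81 FPKM in WT control mice and at 9.78, 9.30 and 9.67 FPKM in WT PTX mice. Thus every PTX value lay above every control value for both genes, although the *Adgrg2* controls were themselves far apart and the lowest of them was the library that stood apart. Non-overlapping groups were found for 14.2% of all genes tested in this comparison, 6.81% with higher values after PTX.

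In edgeR's quasi-likelihood test, none of the 10 members passed an adjusted p of 0.05 for PTX in WT mice, where 0.00663% of genes (1 of 15087) did. The log2 fold change of *Adgrg2* was 0.35 (SE 0.11, unadjusted p = 0.0079, adjusted p = 0.27), a fold change of 1.27 with a 95% confidence interval of 1.08 to 1.50. That of *Adgrb3* was 0.32 (SE 0.10, unadjusted p = 0.0090, adjusted p = 0.27), a fold change of 1.25 with an interval of 1.07 to 1.45. *Adgra3* had a log2 fold change of 0.24 (SE 0.09, unadjusted p = 0.023, adjusted p = 0.32), and its groups overlapped: 3.63, 3.66 and 4.52 FPKM in control mice against 4.76, 4.28 and 4.88 FPKM in PTX mice. These 3 of 10 members had an unadjusted p under 0.05, all with higher values, against 13.5% of all genes (6.59% higher). DESeq2 called none of the members, and 2.05% of all genes. Without WT control mouse 1, the log2 fold change of *Adgrg2* was 0.24 and that of *Adgrb3* 0.29.

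The other members gave smaller values for PTX in WT mice. The latrophilins *Adgrl2* and *Adgrl3* had log2 fold changes of 0.21 (SE 0.14) and 0.19 (SE 0.10), and that of *Adgrl2* was 0.05 without WT control mouse 1 and 0.36 without WT control mouse 2, and that of *Adgrl3* was 0.12 without WT PTX mouse 2. *Adgrb1* had the lowest, -0.20 (SE 0.10, 95% confidence interval -0.42 to 0.03), and -0.13 without WT control mouse 1. *Adgrg1*, *Adgrl1*, *Adgrb2* and *Adgrg6* had values of -0.07, -0.07, -0.03 and -0.03, with upper confidence bounds of 0.09, 0.07, 0.32 and 0.16. In all, 5 members had values above 0 and 5 below, with a median of 0.083 against -0.0058 over all genes tested. Several marker lists lay to one side of 0 for PTX in WT mice. All 5 macrophage markers had negative log2 fold changes (median -0.57, 4 with an unadjusted p under 0.05), and DESeq2 called *Csf1r* and *Mrc1*. Negative values were also found for all 6 tested skeletal muscle markers (median -2.79) and all 5 red blood cell markers (median -0.49), of which 0 had an unadjusted p under 0.05. DESeq2 also called single markers of the ganglion's own cells as lower: the neuronal tubulin *Tubb3* (log2 fold change -0.29, adjusted p = 0.025 in DESeq2), *Fabp7* of satellite glial cells (-0.42, 0.011) and *Ngfr* of nonmyelinating Schwann cells (-0.35, 0.044), with edgeR adjusted p of 0.24, 0.23 and 0.26. Of the 8 sensory neuron markers, 4 were above and 4 below 0, 3 of these with an unadjusted p under 0.05. The 6 satellite glial markers were 3 above and 3 below 0 (median -0.03). Those of nonmyelinating Schwann cells were 3 above and 1 below 0 (median 0.21), 1 each way with an unadjusted p under 0.05. Their part in the members' values was not tested.

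**Figure D3:**
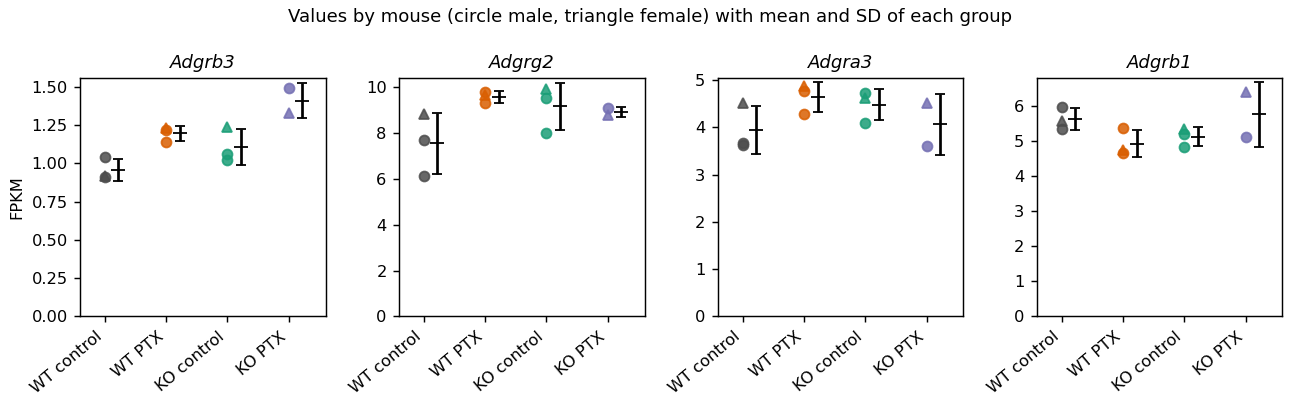
FPKM of *Adgrb3*, *Adgrg2*, *Adgra3* and *Adgrb1* by group, 1 symbol per mouse (circles male, triangles female), with the group mean and SD at the side and axes from 0. *Adgrb3* is higher in the PTX group of both genotypes, whereas *Adgrg2* is lowest in the WT control group and near 9 FPKM in the other 3.

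The second comparison was PTX in *Gpr37l1* KO mice, with 2 mice in the PTX group. *Adgrb3* again did not overlap: 1.06, 1.02 and 1.24 FPKM in KO control mice 1 to 3 and 1.49 and 1.33 FPKM in KO PTX mice 2 and 3. *Adgrg2* did overlap, at 9.55, 8.01 and 9.93 FPKM in KO control mice and 9.09 and 8.77 FPKM in KO PTX mice. Thus *Adgrb3* was higher in both KO PTX mice, and *Adgrg2* lay in the middle of its control range. *Adgrb2* (2.26 to 2.56 against 2.83 and 2.84 FPKM) and *Adgrl2* (1.29 to 1.52 against 1.57 and 1.60 FPKM) were also higher without overlap, and *Adgrg6* (2.02 to 2.28 against 2.01 and 1.90 FPKM) was lower without overlap. These 4 of 10 members compare with 21.6% of all genes without overlap in groups of 3 and 2, 11.3% higher and 10.4% lower.

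None of the members passed edgeR's adjusted threshold for PTX in KO mice, where 0.00663% of genes did, and DESeq2 called none of them and 0.192% of genes. *Adgrb3* had a log2 fold change of 0.34 (SE 0.11, unadjusted p = 0.011, adjusted p = 0.999), a fold change of 1.27 with a 95% confidence interval of 1.07 to 1.50. It was the 1 member with an unadjusted p under 0.05, against 4.32% of all genes (1.75% higher). The next largest values were 0.22 (SE 0.18) for *Adgrb2*, -0.18 (SE 0.10) for *Adgra3*, 0.16 (SE 0.11) for *Adgrb1*, 0.15 (SE 0.15) for *Adgrl2* and -0.13 (SE 0.10) for *Adgrg6*. *Adgrl1*, *Adgrl3*, *Adgrg1* and *Adgrg2* gave 0.09, 0.08, 0.08 and -0.06, and the median over the 10 members was 0.085 against -0.0089 over all genes. The value of *Adgrb1* rested on KO PTX mouse 3 (5.11 and 6.41 FPKM in the PTX mice) and was -0.02 without it. Leaving out KO PTX mouse 2 took *Adgra3* to -0.07, and leaving out KO control mouse 3 took *Adgrb2* to 0.12. With 1 KO PTX mouse left out, the other is assumed to vary as the other groups do.

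In this comparison several marker lists lay wholly or mostly on one side of 0. No marker in any list passed the adjusted threshold of either tool. All 4 fibroblast markers (median -0.47, 3 with an unadjusted p under 0.05), all 6 tested skeletal muscle markers (median -1.72, 1 with an unadjusted p under 0.05), all 5 red blood cell markers (median -0.29) and 7 of 8 markers of myelinating Schwann cells (median -0.21) had negative values for PTX in KO mice. Of 7 markers of central glia and spinal cord, 4 could be tested, and all 4 had positive log2 fold changes for PTX in KO mice (median 2.14), and *Mog*, *Opalin* and *Olig1*, which mark the oligodendrocyte lineage, ranged from 0 to at most 0.03 FPKM in KO control mice and from 0.08 to 1.30 FPKM in KO PTX mice. Brain-type receptors such as *Adgrb3* are also made in the spinal cord, and the part of these markers in the members' values was not tested. Both KO PTX mice had marker sums above every other library, at 7.84 FPKM in mouse 2 and 22.78 FPKM in mouse 3, against at most 7.66 FPKM. Without KO PTX mouse 3 the log2 fold change of *Adgrb3* was 0.44. Without KO PTX mouse 2 the log2 fold change of *Adgrb3* was 0.24, with an unadjusted p of 0.14 in edgeR that takes the spread of the lone PTX mouse from the other groups. Within WT mice the marker sums overlapped, at 6.54, 2.49 and 3.45 FPKM in control mice and 3.61, 3.37 and 7.66 FPKM in PTX mice. Of the 4 tested, 2 had positive and 2 negative log2 fold changes for PTX in WT mice. *Aqp4*, the water channel of astrocytes, was higher by DESeq2 (edgeR log2 fold change 0.64, SE 0.19, adjusted p = 0.26 in edgeR and 0.0497 in DESeq2), at 0.95 to 1.72 FPKM in WT control mice and 1.64 to 2.51 FPKM in WT PTX mice.

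**Figure D4:**
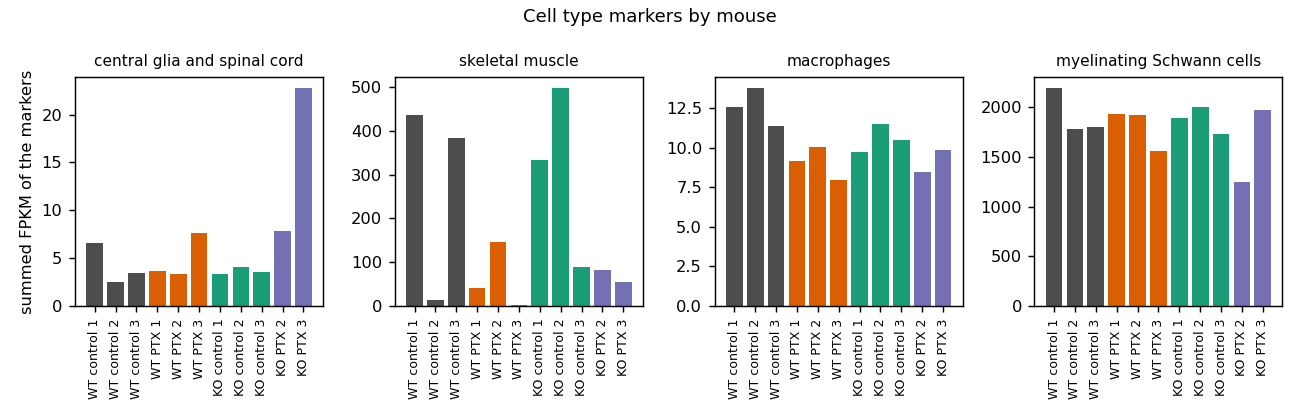
Summed FPKM of marker genes in each mouse for central glia and spinal cord, skeletal muscle, macrophages and myelinating Schwann cells, 1 bar per mouse colored by group and axes from 0. KO PTX mouse 3 has the highest central glia sum (22.78 FPKM), and macrophage sums are 7.96 to 10.02 FPKM in WT PTX mice against 11.36 to 13.78 FPKM in WT control mice.

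Because *Adgrb3* had positive log2 fold changes in each genotype, the mean PTX effect over both genotypes was computed as a comparison added after the values were seen. Its sign for *Adgrb3* was thus largely set beforehand, in the alternatives too. Its p-values and interval for *Adgrb3* cannot be taken at face value. *Adgrb3* had a log2 fold change of 0.33 (SE 0.07), a fold change of 1.26 with a 95% confidence interval of 1.12 to 1.41. The adjusted p was 0.37 in edgeR (unadjusted p = 0.0012) and 0.019 in DESeq2, so the call depended on the tool. edgeR called none of the members and 0.0133% of all genes, and DESeq2 called *Adgrb3* alone of the members and 0.829% of all genes. Over the 19 alternatives tried, the sign was positive in 19 and the adjusted p ranged from 0.019 to 0.75. Without the KO PTX mouse with the higher *Adgrb3* level the log2 fold change was 0.27. The values of all PTX mice and all control mice overlapped (0.742% of genes did not), because KO control mouse 3 (1.24 FPKM) lay above every WT PTX mouse. The other members had values between -0.08 (*Adgrg6*, SE 0.06) and 0.18 (*Adgrl2*, SE 0.10), none with an unadjusted p under 0.05. *Adgrg2*, *Adgrl3* and *Adgrb2* gave 0.15, 0.14 and 0.09, and *Adgra3*, *Adgrl1*, *Adgrg1* and *Adgrb1* gave 0.03, 0.01, 0.0015 and -0.02. With 1 mouse left out, *Adgrl2* ranged from 0.11 to 0.25, *Adgrg2* from 0.09 to 0.20 and *Adgrb2* from 0.03 to 0.16. *Adgrg6* ranged from -0.11 to -0.04. *Adgrb3* was thus the 1 member of 10 with an unadjusted p under 0.05, against 9.36% of all genes (3.83% higher). Several marker lists lay to one side of 0 in this comparison too. All 4 tested markers of central glia and spinal cord had positive log2 fold changes (median 1.00), 2 with an unadjusted p under 0.05 and 1, *Aqp4*, called by DESeq2 (adjusted p = 0.38 in edgeR and 0.017 in DESeq2). All 5 macrophage markers had negative values (median -0.41), and DESeq2 called *Csf1r* and *Mrc1*. DESeq2 also called *Fabp7* of satellite glial cells (log2 fold change -0.38, DESeq2 adjusted p = 0.0022, edgeR 0.37). The 6 satellite glial markers were 3 above and 3 below 0 (median 0.0030), 1 each way with an unadjusted p under 0.05. All 6 tested skeletal muscle markers (median -2.16, 4 with an unadjusted p under 0.05) and all 8 markers of myelinating Schwann cells (median -0.16, 1 with an unadjusted p under 0.05) were below 0 as well. So were all 5 red blood cell markers (median -0.39) and all 4 fibroblast markers (median -0.17, 1 with an unadjusted p under 0.05). The part of these markers in the *Adgrb3* value was not tested.

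KO and WT control mice were compared to see which members differed with loss of *Gpr37l1* alone. None of the members passed edgeR's adjusted threshold, which 0.00663% of genes passed, none had groups without overlap (9.28% of genes did), and DESeq2 called none of them and 0.278% of genes. *Adgrg2* had the largest log2 fold change, 0.28 (SE 0.11, unadjusted p = 0.023, adjusted p = 0.66), and was the 1 member with an unadjusted p under 0.05, against 7.54% of all genes (3.96% higher). Its KO control values of 9.55, 8.01 and 9.93 FPKM overlapped the highest WT control value of 8.81 FPKM, and without WT control mouse 1 the log2 fold change was 0.17. *Adgrl3*, *Adgrb3* and *Adgra3* gave 0.21 (SE 0.10), 0.21 (SE 0.10) and 0.19 (SE 0.09), and *Adgrl2* and *Adgrb2* gave 0.12 and 0.03. *Adgrl3* was at 0.13 without KO control mouse 2, *Adgrb3* at 0.12 without KO control mouse 3 and *Adgra3* at 0.12 without KO control mouse 1. *Adgrb1*, *Adgrg6*, *Adgrl1* and *Adgrg1* had values of -0.14, -0.09, -0.08 and -0.05. With 1 mouse left out, *Adgrb1* ranged from -0.19 to -0.07 and *Adgrg6* from -0.15 to -0.008. *Adgrl1* ranged from -0.12 to -0.04 and *Adgrg1* from -0.10 to -0.02. The 95% confidence intervals of *Adgrg1* (-0.21 to 0.12) and *Adgrl1* (-0.22 to 0.06) were the narrowest of the 10, and larger differences lay outside them. This comparison shares its WT control mice with that of PTX in WT mice, and a low value in them raises both log2 fold changes of a gene such as *Adgrg2*. All 4 fibroblast markers had positive values here (median 0.27, 1 with an unadjusted p under 0.05), and all 5 red blood cell markers negative ones (median -0.56). Their part in the members' values was not tested.

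After PTX, KO and WT mice again differed in no member by edgeR's adjusted p (0.0133% of genes passed) or by DESeq2 (0.0663% of genes). *Adgra3* had a log2 fold change of -0.23 (SE 0.10, unadjusted p = 0.048, adjusted p = 0.99), with 4.76, 4.28 and 4.88 FPKM in WT PTX mice and 3.61 and 4.52 FPKM in KO PTX mice. It was the 1 member with an unadjusted p under 0.05, against 3.55% of all genes (1.74% lower). Its groups overlapped, since the higher KO mouse lay within the WT range, and without the lower KO mouse the value was -0.12. *Adgrb2*, *Adgrb3*, *Adgrl1* and *Adgrl2* were higher in KO mice without overlap and *Adgrg2* and *Adgrg6* lower, 6 of 10 members against 20.2% of all genes (10.7% higher and 9.58% lower). Their log2 fold changes ranged from -0.19 (*Adgrg6*, SE 0.10) to 0.28 (*Adgrb2*, SE 0.18), and every confidence interval among these 6 included 0. Without WT PTX mouse 1 the value of *Adgrb2* was 0.18, and without WT PTX mouse 3 it was 0.45. *Adgrb1*, *Adgrg1* and *Adgrl3* gave 0.22, 0.10 and 0.10. The value of *Adgrb1* was 0.04 without KO PTX mouse 3 and 0.41 without KO PTX mouse 2. In the same comparison all 4 tested markers of central glia and spinal cord had positive log2 fold changes (median 1.67, 2 with an unadjusted p under 0.05). All 4 fibroblast markers had negative ones (median -0.34, 1 with an unadjusted p under 0.05), as did all 5 red blood cell markers (median -0.34). Of the 8 sensory neuron markers, 7 were above 0 (median 0.060). Their part in the members' values was not tested.

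**Figure D5:**
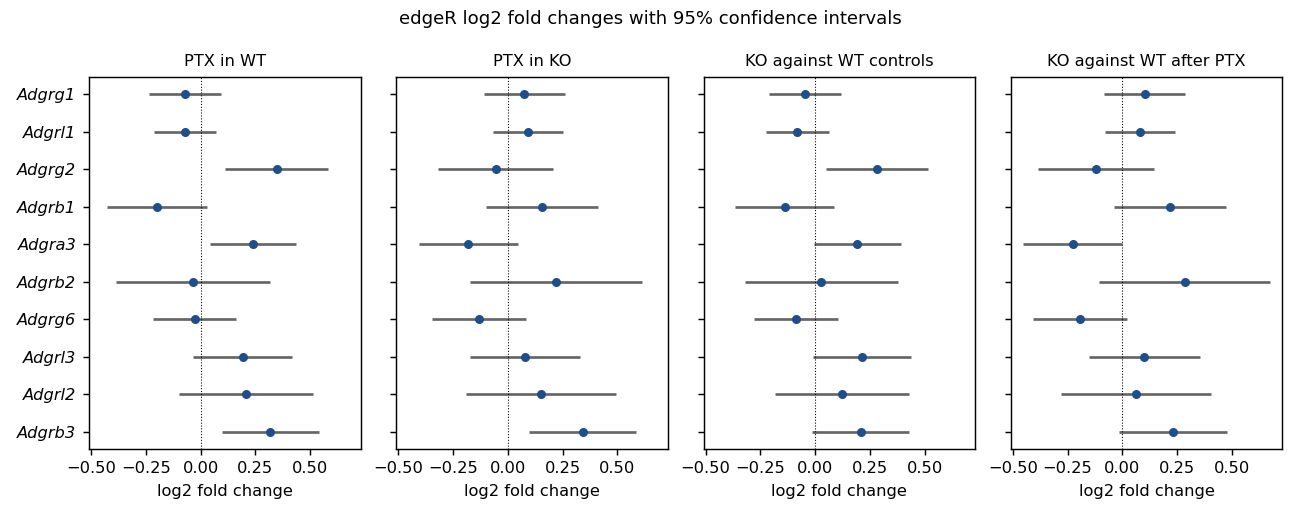
edgeR log2 fold changes of the 10 members (points) with 95% confidence intervals (bars) in 4 comparisons, ordered by level. The intervals of *Adgrg2*, *Adgra3* and *Adgrb3* lie above 0 for PTX in WT mice, and that of *Adgrb3* alone lies above 0 for PTX in KO mice.

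Whether the PTX difference itself differed between genotypes was tested with the interaction term. None of the members passed edgeR's adjusted threshold, which 0.00663% of genes passed, and DESeq2 called none of them and 0.0795% of genes. *Adgra3* had the largest value, -0.42 on the log2 scale (SE 0.14, unadjusted p = 0.011, adjusted p = 0.72), from a PTX log2 fold change of 0.24 in WT and -0.18 in KO mice. *Adgrg2* had -0.40 (SE 0.16, unadjusted p = 0.030, adjusted p = 0.72) and *Adgrb1* 0.35 (SE 0.15, unadjusted p = 0.044, adjusted p = 0.72). These 3 of 10 members had an unadjusted p under 0.05, 1 above and 2 below 0, against 6.30% of all genes (3.12% above and 3.18% below). *Adgrb1* was at 5.98, 5.35 and 5.57 FPKM in WT control mice, 5.37, 4.66 and 4.75 FPKM in WT PTX mice, 4.84, 5.19 and 5.35 FPKM in KO control mice and 5.11 and 6.41 FPKM in KO PTX mice. Only KO PTX mouse 3 stood above the rest for *Adgrb1*, and the value was 0.19 without it. For *Adgrb3* the interaction was 0.02 (SE 0.15, 95% confidence interval -0.31 to 0.35), an interval that still included differences as large as the PTX effect itself. For *Adgrl2* and *Adgrb2* the intervals were wider, -0.52 to 0.40 and -0.27 to 0.78, around values of -0.06 and 0.26. With 1 mouse left out, the *Adgrb2* value ranged from 0.10 to 0.44. *Adgrl1* and *Adgrg1* gave 0.16 (SE 0.10) and 0.15 (SE 0.11), and *Adgrl3* and *Adgrg6* -0.11 (SE 0.15) and -0.11 (SE 0.13). Among the cell type markers, all 4 of fibroblasts had interaction values below 0 (median -0.54, 2 with an unadjusted p under 0.05). All 5 of macrophages (median 0.19) and all 8 of sensory neurons (median 0.071) were above 0, as were 3 of the 4 tested for central glia and spinal cord (median 2.27, 2 with an unadjusted p under 0.05). Their part in the members' values was not tested.

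The 4 female mice were compared with the 7 males in the same model. Replicate number 3 is female in every group, so sex and that number cannot be told apart. None of the members passed edgeR's adjusted threshold, which 0.0398% of genes passed, none was called by DESeq2 (0.815% of genes were), and none had sexes without overlap (1.50% of genes did). *Adgra3* was higher in females by a log2 fold change of 0.18 (SE 0.07, unadjusted p = 0.023, adjusted p = 0.55), and *Adgrg6* lower, at -0.16 (SE 0.07, unadjusted p = 0.036, adjusted p = 0.56), 2 of 10 members with an unadjusted p under 0.05 against 8.44% of all genes (4.32% higher and 4.12% lower). *Adgrg2*, the X-linked member, had a value of 0.13 (SE 0.08, 95% confidence interval -0.06 to 0.31) and of 0.05 without WT control mouse 3. *Adgrl3* gave 0.17 (SE 0.08), *Adgrb2* 0.13 (SE 0.12), and *Adgrl2*, *Adgrb1*, *Adgrg1*, *Adgrb3* and *Adgrl1* gave 0.06, 0.05, 0.03, 0.02 and -0.0012. Without WT PTX mouse 3 the value of *Adgrb2* was 0.01. Markers of central glia and spinal cord (4 of 4 tested, median 0.60, 2 with an unadjusted p under 0.05) and of fibroblasts (4 of 4, median 0.38, 2 with an unadjusted p under 0.05) had positive values in females. Those of skeletal muscle (6 of 6 tested, median -1.30) and of macrophages (5 of 5, median -0.12) had negative ones. DESeq2 called *Fabp7* (log2 fold change -0.60), *Calca* (-0.32) and *Tubb3* (-0.25) as lower in females, with edgeR adjusted p of 0.061, 0.45 and 0.41. The 6 satellite glial markers were 2 above and 4 below 0 (median -0.03), and the 8 of sensory neurons 2 above and 6 below (median -0.05). Their part in the members' values was not tested.

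Beyond the 10 members, 20 other genes of the family were in the table and 10 passed the expression minimum. They summed to between 23.14 and 28.17 FPKM in a library, 29.8% to 35.3% of the members' sum, and *Adgrg4* was listed at 0 in every library. None passed edgeR's adjusted threshold in any of the comparisons. *Adgre1*, which encodes the macrophage antigen F4/80, was called by DESeq2 for PTX in WT mice: it was at 1.69, 2.04 and 2.13 FPKM in control mice and 1.15, 1.25 and 1.22 FPKM in PTX mice, all lower and without overlap. DESeq2 called 2.05% of all genes in that comparison, and 14.2% had groups without overlap. Its log2 fold change was -0.70 (SE 0.16, adjusted p = 0.21 in edgeR and 0.014 in DESeq2), and all 5 macrophage markers had negative values in the same comparison (median -0.57). For PTX in KO mice the *Adgre1* value was -0.14 (SE 0.18), with overlapping groups. The interaction value was 0.56 (SE 0.24, edgeR adjusted p = 0.72). KO control mice lay below WT control mice without overlap (-0.42, SE 0.16, edgeR adjusted p = 0.66), where 9.28% of all genes did not overlap. The most abundant of these 20 were *Adgrf5* at 4.42 FPKM, *Adgre5* at 3.51, *Adgra2* at 3.40 and the planar polarity cadherin *Celsr2* at 3.32 (means of 11 libraries).

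Ligands and signaling partners of the members were also present. The ligands of the latrophilins (teneurins, FLRT proteins and neurexins) were all 10 tested, with *Nrxn2* at 11.2, *Flrt3* at 5.27 and *Nrxn3* at 3.58 FPKM. None passed edgeR's adjusted threshold, and their median log2 fold change was 0.20 for PTX in WT mice, with 7 of 10 above 0, and -0.01 in KO mice, with 5 of 10 above 0, against -0.0058 and -0.0089 over all genes tested. *Flrt3* was called by DESeq2 as lower in females (log2 fold change -0.60, SE 0.18, adjusted p = 0.45 in edgeR and 0.031 in DESeq2), in a comparison where DESeq2 called 0.815% of all genes. Of 7 ligand genes of the *Adgrb* receptors (C1q-like proteins and Nogo receptors), 5 were tested, led by *Rtn4rl1* at 23.3 and *Rtn4rl2* at 8.11 FPKM. None of the 5 passed the threshold of either tool, and *C1ql3*, a ligand of the *Adgrb3* product, was at 1.36 FPKM.

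Of 8 genes for matrix and other ligands of the *Adgrg1* and *Adgrg6* products, none passed edgeR's adjusted threshold. Their median log2 fold change was -0.22 for PTX in WT mice, with 8 of 8 below 0, and -0.38 in KO mice, with 7 of 8 below 0, against -0.0058 and -0.0089 over all genes tested. DESeq2 called 3 of the 8 for PTX over both genotypes, where it called 0.829% of all genes, all 3 lower: the basement membrane collagens *Col4a1* (log2 fold change -0.48, SE 0.12, DESeq2 adjusted p = 0.0051) and *Col4a2* (-0.47, SE 0.12, DESeq2 adjusted p = 0.015) and the laminin chain *Lamb1* (-0.20, SE 0.05, DESeq2 adjusted p = 0.038). *Col4a1* was at 15.06, 18.11 and 15.86 FPKM in WT control mice, 13.32, 13.66 and 10.95 FPKM in WT PTX mice, 16.93, 15.68 and 16.03 FPKM in KO control mice and 8.43 and 13.29 FPKM in KO PTX mice. Every PTX mouse lay below every control mouse for *Col4a1*, whereas 0.742% of all genes had PTX and control mice without overlap. DESeq2 also called *Col4a2* for PTX in WT mice (log2 fold change -0.60, SE 0.16, DESeq2 adjusted p = 0.013), where it called 2.05% of all genes. All 4 fibroblast markers, which mark cells that make matrix, had negative values for PTX in KO mice (median -0.47, 3 with an unadjusted p under 0.05) and over both genotypes (median -0.17), against 1 of 4 in WT mice (median 0.14). Their sum was lowest in KO PTX mouse 2 (76.70 FPKM against 88.76 to 150.54 FPKM in the others), and their part in these values was not tested. The prion protein gene *Prnp*, whose product also binds the *Adgrg6* receptor, was the most abundant of the 8 at 210 FPKM. For *Adgrg6* itself the PTX log2 fold changes were -0.03 in WT and -0.13 in KO mice, and those of *Adgrg1* -0.07 and 0.08, each with a confidence interval that included 0.

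Of 26 adaptor and effector genes (G proteins, guanine nucleotide exchange factors, ELMO and DOCK proteins, scaffolds and adenylyl cyclases), 25 were tested and none passed the threshold of either tool in any comparison. The most abundant were *Gnas* at 136, *Rac1* at 66.5, *Gnaq* at 49.5 and *Rhoa* at 32.0 FPKM (means of 11 libraries). Their median log2 fold change was 0.012 for PTX in WT mice and 0.021 in KO mice. Markers of myelinating Schwann cells, where *Adgrg6* acts, summed to between 1252.17 FPKM in KO PTX mouse 2 and 2194.85 FPKM in WT control mouse 1, and 7 of their 8 genes had negative log2 fold changes for PTX in KO mice (median -0.21).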

How the data were processed

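DRG RNA from 11 mice was sequenced from stranded poly(A) libraries. The submitters' processing notes name cutadapt, FastQC, HISAT2, StringTie and the mm10 build; versions, and how strand was used in counting, were not given in the sources used here. The deposited table holds FPKM, normalized by the authors for transcript length and library size, and estimated counts, which the authors deposited as whole numbers without normalization. The estimated counts are whole but not evenly spread (4 is held by 1369 genes of WT control mouse 1, 3 by 573 and 5 by 334), so they were handled as estimates. No file column was left unmapped.

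Levels are FPKM. Differences are from edgeR 4.0.16 (TMM normalization, quasi-likelihood F test, R 4.3.3) fitted to all 11 libraries with group and labelled sex, on 15087 genes with a mean of at least 0.5 FPKM, with Benjamini-Hochberg adjustment over all of them and a threshold of 0.05; standard errors and 95% confidence intervals come from the same fit. Tables were handled in Python 3.11.15. The model was also run on simulated counts with changes larger than those of any member, so that run does not bear on power for the members. The alternatives were DESeq2 1.42.0, another scaling, no expression minimum, limma 3.58.1 on log2(FPKM + 1) and log2(FPKM + 0.1), the fit without sex, replicate blocks, the compared groups only and leaving out each mouse. The mean PTX effect over both genotypes was added after the data were seen. Mice are numbered by the sample descriptions. No libraries were duplicates. Nothing says whether ganglia were pooled or prepared separately, so p-values measure the spread between these libraries, which may be partly technical. A library total limits counting error only.

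The members and the gene lists were chosen with earlier results of these data known. Every member is named in each comparison; of the other lists, genes past a threshold and up to 4 with the highest mean FPKM were named, and *Adgrg4*, *C1ql3* and the oligodendrocyte markers were named after their values were seen. For each member, the 3 genes with the highest Pearson's r on log2(FPKM + 0.1) were named. A gene of the lists is not reported here. No set test was run.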

Additional observations from a re-analysis of the deposited data

Results flagged for a closer look

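*Adgrl3* in KO PTX mouse 3 was at 1.94 FPKM, far above the other 3 female mice, which were at 1.63, 1.64 and 1.68 FPKM. Each female came from a different group, so genotype and PTX differed between them and they were not replicates. Chance alone gives such a gap in about 1 in 20 sets of replicates, and each of the 10 members was looked at in both sexes. The same library had the highest *Adgrg1* (43.43 FPKM) and *Adgrb1* (6.41 FPKM) values and the highest sum of central glia and spinal cord markers. The part of those markers was not tested.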

How the results depend on the processing

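Of 1120 member log2 fold changes recomputed under alternatives, 1066 kept their direction and 54 changed sign. Only 1 passed the threshold, that of *Adgrb3* for PTX over both genotypes under DESeq2 (1 member called, adjusted p = 0.019). That comparison was chosen after the *Adgrb3* values were seen. The largest sign-changed value was 0.113 in size. Leaving out 1 mouse moved 56 of the 70 member log2 fold changes by over 1.5 times at least once, and gave ranges across 0 for the following. For PTX in WT mice they were -0.19 to 0.11 for *Adgrb2* and -0.091 to 0.053 for *Adgrg6*, and for PTX in KO mice -0.060 to 0.23 for *Adgrg1*, -0.16 to 0.043 for *Adgrg2* and -0.015 to 0.35 for *Adgrb1*. For KO against WT they were -0.036 to 0.28 (*Adgrl2*) and -0.11 to 0.18 (*Adgrb2*) in control mice and -0.035 to 0.26 (*Adgrg1*) after PTX. For the interaction they were -0.074 to 0.13 (*Adgrb3*) and -0.22 to 0.11 (*Adgrl2*). For sex they were -0.033 to 0.015 (*Adgrl1*), -0.048 to 0.069 (*Adgrb3*), -0.035 to 0.053 (*Adgrg1*) and -0.027 to 0.090 (*Adgrb1*). For PTX over both genotypes they were -0.070 to 0.076 (*Adgrg1*), -0.011 to 0.033 (*Adgrl1*), -0.017 to 0.078 (*Adgra3*) and -0.11 to 0.070 (*Adgrb1*). The cause of these changes was not tested.

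Deviations of same-numbered mice had a mean correlation of 0.080 over 15 pairs, 7 of them over 0.1, against -0.040 over 30 pairs with other numbers, 4 of them over 0.1. The 6 pairs of number 3, all female, were at 0.036 to 0.25, and 6 of 11 libraries were closest to their own number. Since not every pair was over 0.1, the numbers were not taken as pairs. This rule is strict and does not settle whether same-numbered mice belong together. The pairs are also not independent, since the deviations of the 2 KO PTX mice mirror each other. A replicate block by description number turned *Adgrb3* in the interaction to -0.0080 and, for PTX over both genotypes, *Adgrg1* to -0.0041 and *Adgrl1* to -0.0026. A replicate block by title number with sex gave -0.018 for *Adgrg1*, 0.040 for *Adgrg2* and -0.062 for *Adgrb1* for PTX in KO mice, and -0.046 for *Adgrg1* and -0.042 for *Adgra3* over both genotypes. Without an expression minimum *Adgrb3* in the interaction was -0.0016 and *Adgrg1* over both genotypes -0.0015, and limma gave *Adgrl1* 0.010 and 0.011 for sex.

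Counts over all genes called moved more. DESeq2 called 309 genes for PTX in WT mice (edgeR 1), 29 for PTX in KO mice (1), 42 for KO against WT control mice (1), 10 after PTX (2), 12 for the interaction (1), 123 for sex (6) and 125 for PTX over both genotypes (2). Without an expression minimum the counts were 2 for PTX in WT mice and 14 for sex. limma gave 0 and 0 for PTX in WT mice, and 0 and 1 over both genotypes. Without sex they were 0 for PTX in WT mice and 1 over both genotypes. The compared groups alone gave 5 (PTX in WT), 4 (PTX in KO) and 5 (KO against WT after PTX). The replicate block by title number with sex gave 0 (PTX in WT), 2 (PTX in KO), 2 (interaction) and 4 (both genotypes). Leaving out 1 mouse gave 0 to 30 (PTX in WT), 1 to 7 (PTX in KO), 1 to 4 (KO against WT controls), 2 to 7 (after PTX), 1 to 6 (interaction), 5 to 12 (sex) and 1 to 18 (both genotypes). In each of these, edgeR and limma called 0 members.

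Of 150 level values recomputed, 24 moved by more than 1 SD. All 24 came from replacing FPKM with TMM-scaled CPM per kilobase of merged exons. Of the 150, 110 came from leaving out a mouse, and 0 of these moved. In groups this small, leaving out 1 mouse cannot shift the group mean by 1 SD. Those 110 values therefore say nothing on how stable the levels are, and the 24 are to be read against the rescaled values alone. With 2 KO PTX mice and 1 female per group, members' confidence intervals were up to 0.78 wide on the log2 scale for PTX in KO mice.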
